A study of Drosophila melanogaster with 12 samples.

Results

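The linear RNA of Drosophila melanogaster stage 14 follicles was compared between day 2 and day 12, gene by gene. Every row of the authors' table of linear transcripts was used: 10162 transcripts, of which 7490 carry an annotated identifier and 2672 were assembled by the authors, belonging to 5954 genes or loci. For each day the values of a gene's transcripts were added, and the day 12 sum was set against the day 2 sum. These values stand for 6 of the 12 samples of the series, 3 linear RNA libraries per day; the other libraries were made for circular RNA and were not used here. Both groups came from the Oregon R strain, a common wild-type stock, with ovaries given as the tissue and the follicle stage and day given as the time point. The labels name no treatment or allele for either day, and the sources used here do not state from when the days were counted or how many flies a library holds. The series title presents the work as a study of aging follicles.

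A stage 14 follicle is the finished egg chamber: an oocyte arrested in meiosis, enclosed by its eggshell and a thin layer of follicle cells. The nurse cells have emptied their contents into the oocyte and died by then, and transcription in the oocyte is largely silent. The stored maternal RNA must serve the egg until the embryo begins to transcribe its own genes. Mature follicles can be held in the ovary until a female ovulates.

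The table gives 1 mean per day, which the authors took over 3 libraries, so no spread between libraries can be given, and no difference below was tested against replicate error. The unit is an abundance whose name is not stated. Comparing levels between genes assumes that it is scaled by transcript length. All values of a day add up to 628567 (day 2) and 634242 (day 12), and the read depth behind them is unknown. A gene was called higher or lower at day 12 when its sums differed at least 1.5-fold and their mean was at least 10, which 5315 genes reached. All 6 germline marker genes looked for were measured, and their summed share of the listed total was 0.541% at day 2 and 0.605% at day 12. Of these, 4 were higher at day 12 and 2 lower. Markers of muscle, fat body, hemocytes, neurons and spermatheca were looked for, and none had a listed transcript. How transcripts were chosen for listing is not stated, so this does not show that such RNA was absent.

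The same few RNAs headed the list on both days. The 2 copies of 7SL RNA, the RNA of the signal recognition particle, were first and second. Copy 7SLRNA:CR32864 had a gene sum of 16687 at day 2 and 16344 at day 12, and copy 7SLRNA:CR42652 had 16669 and 16387; they are near-identical, so reads can be split between them. The third was the ribosomal protein gene RpL41, with 14781 and 14387. The fourth was dhd, a germline thioredoxin that the egg needs to unpack the sperm chromatin, with 8544 and 9049. Next came snRNA:7SK, an inhibitor of the transcription elongation factor P-TEFb, at 7064 and 4743. RpS23 stood at 4516 and 4910, RNaseMRP:RNA, a ribosomal RNA processing factor, at 4169 and 4202, and RpS27A, a ribosomal protein made as a fusion with ubiquitin, at 3330 and 3438.

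Of the 10 most abundant genes of day 2, 8 were among the 10 most abundant of day 12. The pair that dropped out was of mitochondrial origin. The cytochrome c oxidase mRNAs mt:CoI and mt:CoIII went from ranks 7 and 9 to ranks 29 and 54, with sums of 4214 and 3787 at day 2 and 2505 and 1640 at day 12. Their places were taken by RpL31 (rank 11 to rank 8; 3233 to 3619) and RpLP2 (rank 12 to rank 10; 3094 to 3355).

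The RNA was spread over genes in nearly the same way on both days. The top 3 genes held 7.66% of the listed total at day 2 and 7.43% at day 12, the top 10 held 13.3% and 12.7%, and the top 100 held 38.3% and 37.97%. At day 2, 242 genes were enough to hold 50% of the total, and at day 12 this took 251 genes. Across all 5954 genes the ranks of the days had a Spearman rho of 0.986, given here as a description, since genes are not independent replicates. When each ranking was cut into deciles, 4396 genes (73.8%) stayed in their decile and 103 moved by more than 1 decile. In the top decile 94.5% of genes stayed, and in the seventh decile from the top 62.1% did.

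**Figure D1:**
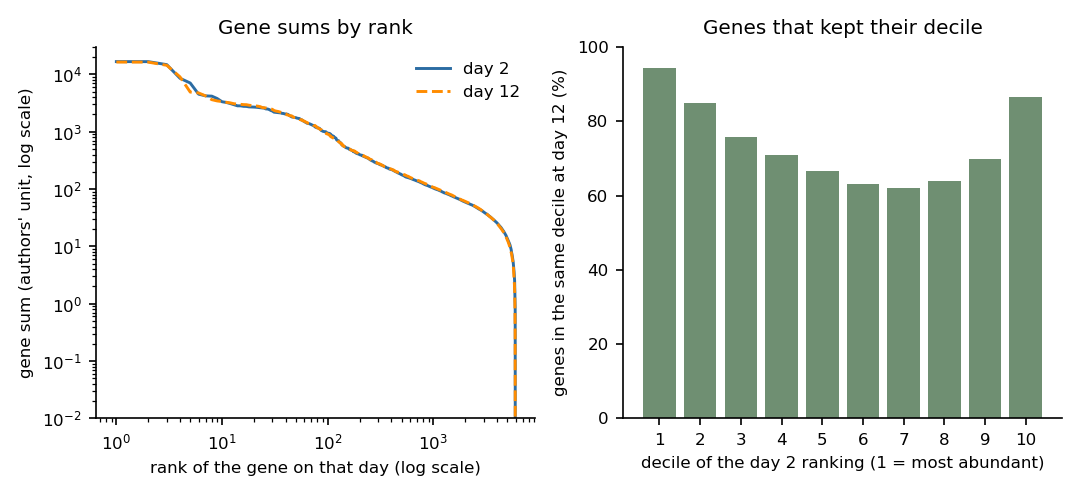
Left, gene sum (authors' unit, log scale) against the rank of the gene on that day (log scale), with a solid line for day 2 and a dashed line for day 12. Right, percentage of genes of each decile of the day 2 ranking found in the same decile at day 12; the curves lie on each other, and the percentage is lowest, 62.1%, in the seventh decile.

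The top 100 genes shared 93 members between the days. Messages of the cytosolic ribosome filled 54 of these places at day 2 and 53 at day 12. Translation factors filled 5 on both days, led by eEF5 (2597 and 2812) and eEF2 (2123 and 2059). Redox genes filled 3, mRNAs of the mitochondrial genome 4, and small noncoding RNAs 5 and then 4. High-ranking genes outside the function groups included Tctp, a growth-related protein (2759 and 3070), awd, the nucleoside diphosphate kinase (2580 and 2164), Df31, a chromatin decondensation factor (2025 and 2348), and porin of the outer mitochondrial membrane (1263 and 1347).

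Among the 7 genes that left the top 100, 3 moved far. A noncoding RNA, lncRNA:CR34335, went from rank 38 to rank 243, with 2082 at day 2 and 346 at day 12. RpS20 went from rank 44 to rank 132 (1883 and 633), and mt:CoII from rank 70 to rank 129 (1330 and 653). RpL10Ab (80 to 126) and RNaseP:RNA (97 to 122) followed, while RpL39 (99 to 103) and Tpi (96 to 102) only crossed the boundary. Of the 7 that entered, mt:ATPase6 came from rank 438 to rank 20. The others began within ranks 101 to 115: the histone variant His2Av, the posterior determinant nos, the chromatin protein HmgD, the co-chaperone p23, RpL27 and RpS7.

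Function groups were compared by their share of the listed total, by the median log2 ratio of day 12 over day 2 among their members, and by the number of members called. Over all 5954 genes the median log2 ratio was 0.04, and 3481 genes had a higher sum at day 12. This share moved with abundance: it was 38.9% in the lowest decile by mean of the 2 days and 72.1% in the highest. The counts of higher members in the groups were not tested against these shares. Among the 5315 genes with a mean of at least 10, 49 were called higher (0.922%) and 99 lower (1.86%), or 2.78% together.

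Ribosomal proteins made up the most abundant group. Their 83 measured genes held 21.3% of the listed total at day 2 and 21.5% at day 12, with a median rank of 67 and 64. At day 12, 62 of the 83 gene sums were above and 21 below those of day 2, with a median log2 ratio of 0.10. In the top decile of all genes by mean, 72.1% were higher and the median was 0.08. The part of abundance in the group's values was not tested. None was called higher and 6 were called lower. The other 77 genes lay between log2 ratios of -0.37 and 0.49, and their share went from 20.3% to 21.2%. By subunit and without the 6, the 31 small subunit genes held 7.53% and 7.91%, and the 46 large subunit genes 12.8% and 13.3%.

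The 6 ribosomal genes that stood apart were RpS2, sta, RpLP0, RpS20, RpS21 and RpL10Ab. RpS2, on the minus strand at chr2L:9896265-9897552 (dm6), had a gene sum of 936 at day 2 and 32.7 at day 12, a log2 ratio of -4.84. The laminin receptor homolog sta, a small subunit protein gene, had 902 and 225, and RpLP0, the base of the ribosomal stalk, had 519 and 144. RpS20 had 1883 and 633, RpS21 866 and 485, and RpL10Ab 1169 and 690. The 6 together had 6275 at day 2 and 2210 at day 12. Values of the authors' deposited table for their main transcripts ranged widely, with a p of 8.00e-05 (adjusted 0.0454) for RpS20, 0.00165 for RpLP0, 0.0577 for RpS2, 0.438 for sta and 0.655 for RpS21.

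Transcripts of the mitochondrial genome differed by kind. Of 10 protein-coding genes, 7 were called lower and 1 higher, and the group's share went from 2.01% to 1.51%. Its median log2 ratio was -0.81. Subunits of complex I stood at 271 and 136 (mt:ND4), 203 and 95.8 (mt:ND5) and 183 and 100 (mt:ND3), and mt:Cyt-b of complex III at 1755 and 1034. The ATP synthase mRNA mt:ATPase6 was the exception, with 201 at day 2 and 2821 at day 12, a log2 ratio of 3.81. In the authors' deposited table mt:ATPase6 had a p of 0.00426 (adjusted 0.143). The remaining 2 genes, mt:ND1 (694 and 553) and mt:ATPase8 (9.67 and 14.3), were not called. Without mt:ATPase6 the group summed to 12446 at day 2 and 6730 at day 12.

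Its neighbours overlap mt:ATPase6 at both ends: on the plus strand of the mitochondrial genome mt:ATPase8 spans positions 3907 to 4068, mt:ATPase6 4062 to 4736 and mt:CoIII 4736 to 5524. Levels of these 3 genes added together were 3998 at day 2 and 4475 at day 12, a log2 ratio of 0.16, while mt:CoIII alone had a log2 ratio of -1.21. The sources used here do not say how reads that span these genes were shared among them. Mitochondrial tRNAs went the opposite way to most of the mRNAs. Of 14 measured, 13 had a higher value at day 12, with a median log2 ratio of 1.27. Only 8 had a mean of at least 10, and 7 of these were called higher. On the plus strand mt:CoII ends at position 3767 and mt:tRNA:Lys-CTT starts at 3768. How reads that span mRNA and tRNA genes were counted is not stated either. Examples are mt:tRNA:Lys-CTT (45.6 and 110), mt:tRNA:Leu-TAA (38.8 and 90.4) and mt:tRNA:Asp-GTC (17.6 and 47.9). Their median length was 66 nt, and mt:tRNA:Gln-TTG, below 10 on both days, was the 1 with the lower value at day 12 (8.37 and 3.97). The respiratory chain genes of the nucleus showed neither pattern: 67 genes held 1.99% and 1.93%, with a median log2 ratio of 0.01 and 1 gene called, ND-75 of complex I (23.5 and 14.4).

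Small noncoding RNAs of the nucleus and cytoplasm were lower on balance. Of 32 measured, 25 had a lower sum at day 12 and 6 of the 18 with a mean of at least 10 were called lower, none higher. The median log2 ratio was -0.45 and the group's share went from 7.39% to 6.77%. The minor spliceosome RNA snRNA:U11 stood at 141 and 61.0 and snoRNA:Tudor-SN-a at 103 and 37.2. The other called members were snRNA:U2:34ABc (42.1 and 23.4), snRNA:U2:14B (13.2 and 7.13), snoRNA:U3:54Aa (23.9 and 13.7) and snoRNA:U3:54Ab (17.5 and 10.4). U2 and U3 RNAs come from near-identical copies, so reads can be split among them. With a log2 ratio of -0.57, snRNA:7SK was just short of a call, and RNaseP:RNA, which trims tRNA precursors, stood at 980 and 726.

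RNAs named as long noncoding held 0.845% of the listed total at day 2 and 0.445% at day 12. Most of the gap lay in a pair of short X-linked RNAs: lncRNA:CR34335 at chrX:3545750-3546110 on the minus strand (2082 and 346) and lncRNA:CR40469 at chrX:122493-122706 on the plus strand (909 and 141). Among the 117 members, 64 had a higher and 52 a lower sum at day 12, with a median log2 ratio of 0.02. Besides this pair, lncRNA:Hsromega, a nuclear stress RNA, was called lower (19.4 and 5.22), as was asRNA:CR45889 (13.0 and 8.21). This antisense RNA lies within the span of Diap1 on the opposite strand, and both had a log2 ratio of -0.67. As strandedness is not stated, it is unknown whether their reads were kept apart. The list was matched by name (lncRNA, asRNA or CR), and by the annotation 21 of its 117 members are pseudogenes, with sums of 425 and 441 together. The only member called higher, CR45548 (8.42 and 13.0), is one of them.

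**Figure D2:**
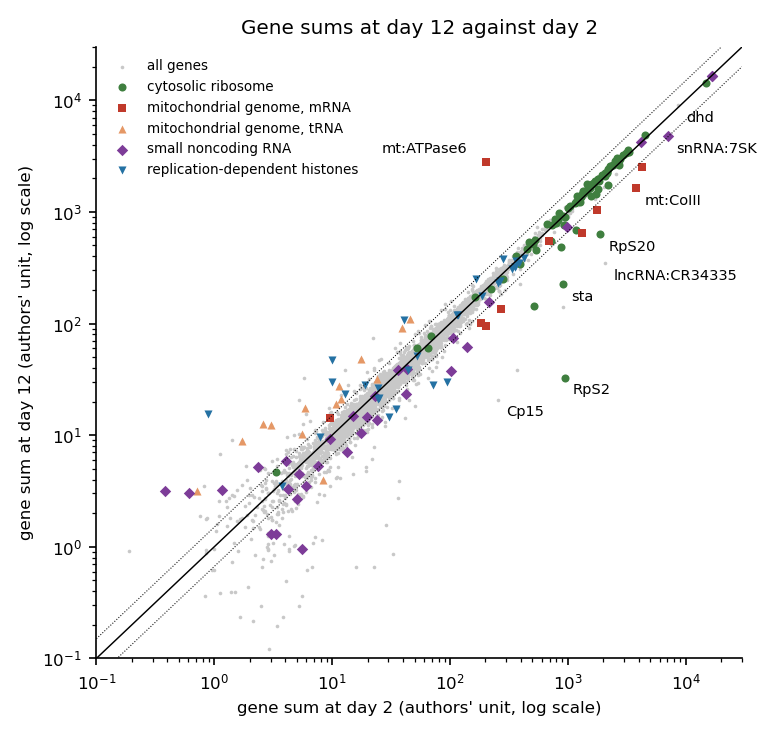
Gene sum at day 12 against gene sum at day 2, both in the authors' unit on log scales, 1 point per gene, with 5 groups coloured; the solid line marks equal sums and the dotted lines a 1.5-fold difference. The 20 genes with a sum of 0.1 or less on either day are not drawn. Most points lie between the dotted lines, while RpS2, sta, RpS20 and Cp15 lie below them and mt:ATPase6 above.

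Replication-dependent histones are encoded by tandem copies, and those of His1 differed in both directions. The 15 listed copies of His1, the linker histone, had log2 ratios from -1.65 to 4.12, with 8 higher and 7 lower. The copy at 4.12 had a mean under 10, and the highest called copy was His1:CG33825 at 2.23. Added together they had 1053 at day 2 and 1162 at day 12. Copy His1:CG33828 stood at 93.6 and 29.7 and His1:CG33855 at 71.9 and 27.9, against 9.95 and 46.7 for His1:CG33825 and 40.8 and 107 for His1:CG33834. By type, the 4 copies of His2B summed to 259 and 333, a log2 ratio of 0.36. The 5 copies of His3 summed to 940 and 886, with log2 ratios from -0.15 to 0.05, and the 5 of His4 to 1853 and 1689, with -0.16 to -0.11. Over the 30 copies, 5 were called higher and 4 lower. Because the copies are near-identical, their separate values are uncertain. The 5 histone variants, whose genes stand outside the cluster, had none called. Among them were His3.3B (1073 and 1058), His2Av (941 and 1108) and the embryonic linker histone BigH1 (444 and 483).

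Maternal messages for the egg and early embryo had no member called in 4 groups. For meiosis and the cell cycle, 27 of 36 sums were higher at day 12, with a median log2 ratio of 0.08. Their median level at day 2 was 84.6. Among all genes with a mean of 66.4 to 92.2, 72.3% were higher and the median was also 0.08. The cyclins CycB (1702 and 1900) and CycA (1171 and 1279) led. Among 26 axis and germ plasm genes, 13 were higher and 13 lower, with a median of 0.02; exu, which localises bcd RNA, stood at 1042 and 978 and the germ plasm gene osk at 707 and 845. Of 10 egg activation genes 8 were higher, among them Cam, calmodulin (380 and 470), and gnu, of the PNG kinase complex (295 and 323). Repressors of maternal RNA numbered 24, of which 14 were higher, close to the share over all genes (3481 of 5954). Their most abundant member, the helicase me31B, went from rank 15 (2823) to rank 12 (3178). Of the 25 genes of the piRNA pathway, which silences transposons, 17 were higher and 1 was called: Panx, a silencing factor, was lower (23.9 and 14.9).

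Several groups leaned to lower values. Of 31 tRNA synthetases, 23 had lower sums at day 12, with a median log2 ratio of -0.16. GlnRS (65.9 and 39.8) and ValRS (36.9 and 20.8) were called lower. Of the 8 subunits of the CCT chaperonin, which folds actin and tubulin, 7 were lower and none was called; CCT2 had 484 and 418 and CCT6 303 and 245. All 5 tubulin sums were lower, from betaTub56D (1402 and 1399) to alphaTub84D (70.5 and 50.7), with none called. Members of the Hsp60, Hsp70 and Hsp90 families were lower in 9 of 12 genes, with Hsp83 at 2006 and 1673 and Hsc70-4 at 1697 and 1303, and none was called. Other groups had a single called member: Rpn2 of the proteasome (42.8 and 26.1), Pfk of glycolysis (37.0 and 21.6), eIF3l of the translation factors (64.9 and 32.4), Diap1, an inhibitor of apoptosis (145 and 91.7), Nup205 of the nuclear pore (13.8 and 9.15), the myosin heavy chain gene zip (18.4 and 10.9) and yl, the yolk protein receptor (390 and 225), all lower. The mitochondrial ribosome gene mRpL18 was called higher (9.48 and 17.4). Redox, ubiquitin, spliceosome, DNA replication, autophagy and Toll and Dorsal genes had none called.

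**Figure D3:**
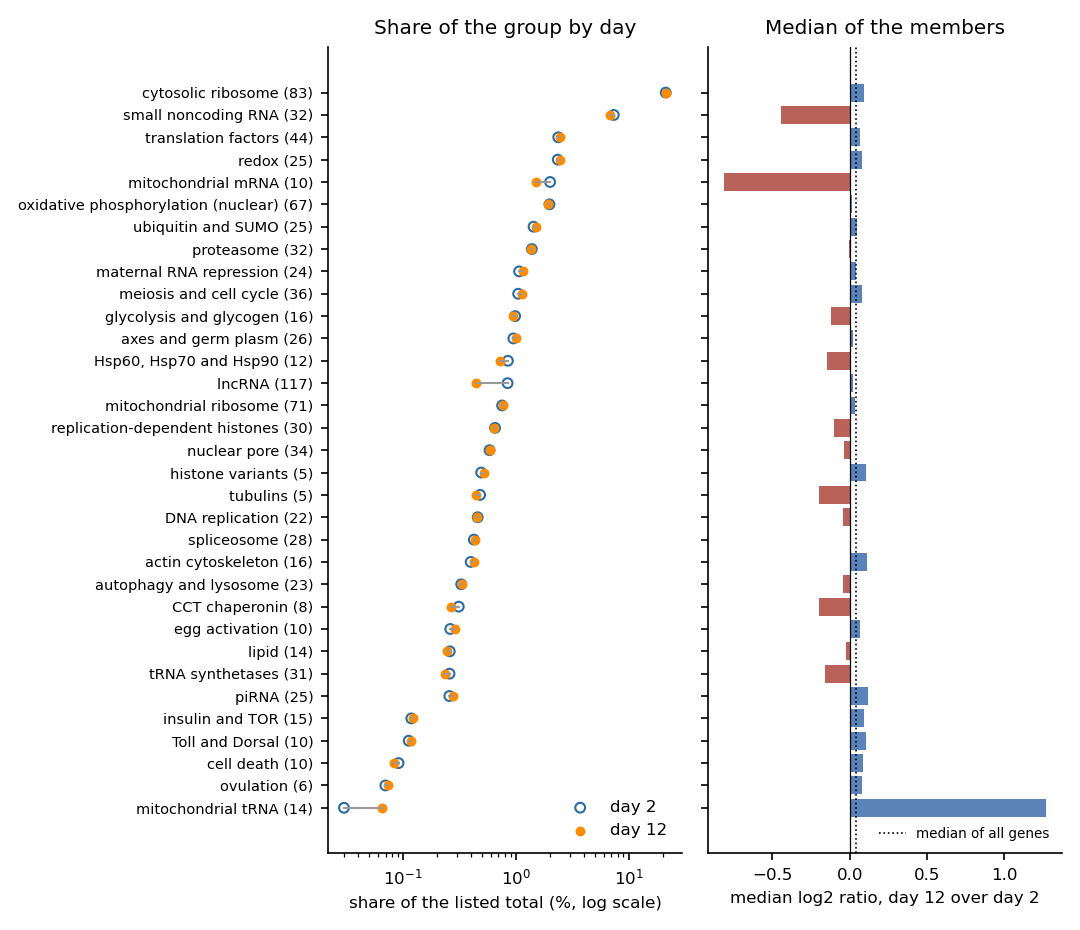
Left, share of the listed total (%, log scale) held by each function group with at least 5 measured genes at day 2 (open circles) and day 12 (filled circles), with the number of genes in brackets. Right, median log2 ratio of day 12 over day 2 among the members, with the median of all genes (0.04) dotted. Shares nearly coincide except for mitochondrial mRNA (2.01% and 1.51%), lncRNA (0.845% and 0.445%) and mitochondrial tRNA (0.0299% and 0.0656%).

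Follicle cell and yolk messages were few. The late chorion gene Cp15, an eggshell protein of the follicle cells, stood at 254 at day 2 and 20.8 at day 12, a log2 ratio of -3.61, with a p of 0.00275 (adjusted 0.129) in the authors' deposited table. Of 10 late follicle cell markers, Cp15 and Ilp8 had values and the others had no listed transcript. Ilp8, an insulin and relaxin family peptide, went the other way (50.1 and 80.1). Its annotated transcript had 25.9 and 77.5, with a p of 0.186 (adjusted 0.541) in the authors' deposited table. The assembled transcripts of Ilp8 were all lower at day 12. Of 8 early follicle cell markers, the yolk protein genes Yp1 (8.27 and 1.15), Yp2 (6.15 and 0.618) and Yp3 (6.77 and 0.665) had values, all under the minimum of 10. In bulk samples fewer cells of a type and less RNA per cell cannot be told apart. The part of follicle cell RNA in the other differences was not tested. The vitelline membrane genes measured form a separate list and are not among the follicle cell markers. Of these, fs(1)M3 was called lower (77.2 and 45.7), and fs(1)N (67.1 and 53.2) and clos (105 and 112) were not. Of 2 markers of the early germarium, where germ cells start to differentiate, bam stood at 44.2 and 46.2 and the other had no listed transcript.

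Most gene sums differed little. Among the 5315 genes with a mean of at least 10, 54.8% of sums lay within 1.1-fold of each other and 89.9% within 1.25-fold, and the median difference was 1.09-fold. Higher sums at day 12 were more frequent (3233 genes) than lower ones (2082), with a median log2 ratio of 0.05, but the tail was longer on the lower side. The 5th percentile of the log2 ratio was -0.40 and the 95th was 0.25. In the authors' deposited table the main transcript had a p under 0.05 for 1234 of these genes (23.2%), for 11 of the 49 called higher and for 46 of the 99 called lower.

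The log2 ratio moved with transcript length. The 4737 coding genes with a known length were cut into deciles by length. The median log2 ratio was 0.10 for messages of 738 to 1017 nt, 79.8% of which were higher at day 12. The shortest messages, of 288 to 737 nt, had a median of 0.06, with 68.6% higher. The median was -0.09 for the longest decile, from 4145 to 18859 nt, of which 34.6% were higher. The gap was present among genes with a mean level of 10 to 30, with a median of 0.05 below the median length and -0.15 in the longest decile. At 30 to 100 the values were 0.08 and -0.03. From 100 upward they were 0.09 and 0.10, the latter over only 27 genes. Ribosomal protein messages had a median length of 640 nt and those of tRNA synthetases 2174 nt. The part of length in the group medians was not tested.

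Movements in rank were summarised as percentile points, where 100 is the most abundant gene of a day. Of the 5315 genes, 68 gained at least 10 points (1.28%) and 151 lost at least 10 points (2.84%). The genes nearest this limit were Pgant35A and milt, both at -10.05 points, inside it and rdgB at -9.99 outside it. A given difference counts for more in the crowded middle of the ranking. The median shift was 3.26 points either way in the fourth decile from the bottom, with a median difference of 1.10-fold, against 0.294 points and 1.09-fold in the top decile.

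Abundant messages were among those that lost most. Cp15 lost 67.2 points, from rank 335 to rank 4337, and RpS2 lost 56.0, from rank 103 to rank 3439. CG42365 lost 49.5 points, from 39.5 to 0.00483, and the authors' deposited table gives it an adjusted p of 3.63e-04. There 0.177% of transcripts had an adjusted p under 0.05. Exons of other genes overlap CG42365 on the opposite strand, among them the locus of CG42379, CG42380 and CG42381 (49.0 and 54.6). With strandedness not stated, it is unknown whether their reads were kept apart. CG43134, a short X-linked coding gene, lost 48.1 points, from 369 to 38.5. Further down came CG45093 (36.2 and 2.76), CG44000 (36.7 and 3.92), His1:CG33828, CG31917 (33.0 and 0.870), His1:CG33855 and snoRNA:Tudor-SN-a.

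Mitochondrial tRNAs were frequent among the gains, while replication-dependent histone copies moved both ways, 5 up and 4 down by at least 10 points. His1:CG33825 and Rpb7, a subunit of RNA polymerase II (22.3 and 73.8), each gained 45.2 points. CG13397, named Naglu in the gene name table after a human lysosomal enzyme that degrades heparan sulfate, gained 36.5 points (5.72 and 32.2). The mitochondrial tRNAs mt:tRNA:Asp-GTC (35.0 points), mt:tRNA:Leu-TAA (30.1), mt:tRNA:Lys-CTT (28.3) and mt:tRNA:Trp-TCA (23.7) were also among the 10 largest gains. CG3740 (33.4 points), His1:CG33834 (32.3) and His1:CG33822 (28.1) completed them. Thus 7 of these 10 were histone copies or mitochondrial tRNAs. In the authors' deposited table the main transcripts of the tRNAs had a p from 0.00349 to 0.0313. The p was 0.271 for Rpb7, 0.405 for His1:CG33825, 0.360 for CG13397 and 0.490 for CG3740. For His1:CG33834 and His1:CG33822 it was 0.971 and 0.229. In CG13397, CG3740 and Rpb7 the leading transcript went from an assembled to an annotated one.

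**Figure D4:**
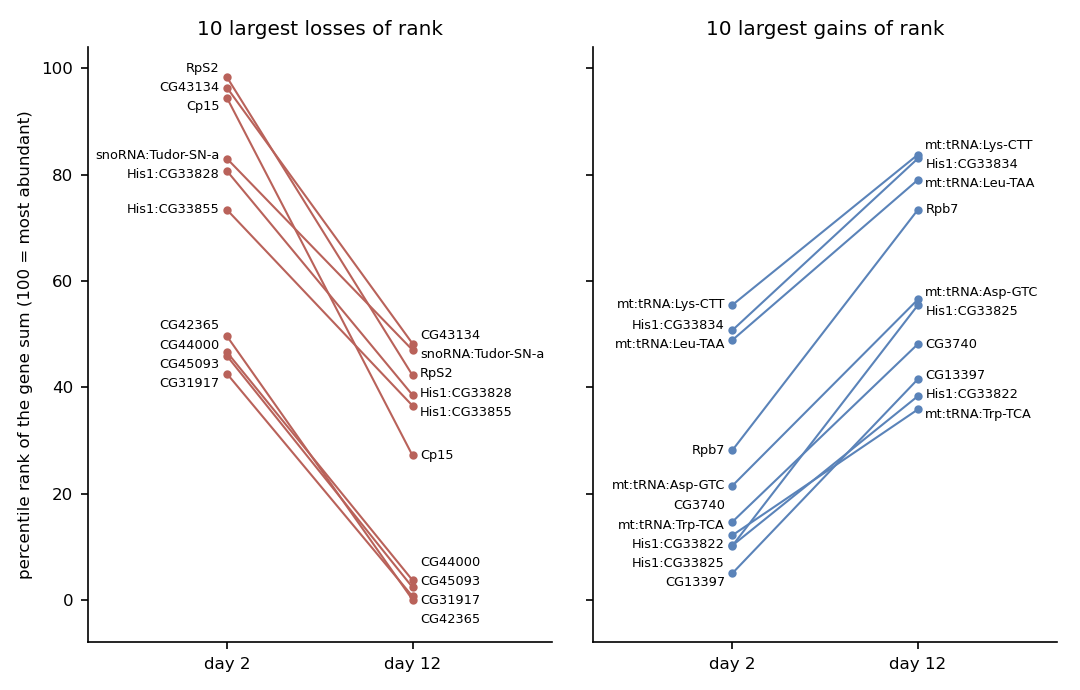
Percentile rank of the gene sum (100 = most abundant) at day 2 and day 12 for the 10 genes with the largest losses, left, and the 10 with the largest gains, right, among genes with a mean of at least 10. RpS2, CG43134 and Cp15 start near the top of the ranking and end below its middle, and no gene among the gains ends above the percentile of mt:tRNA:Lys-CTT, 83.8.

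The genes that moved are described here by their shares, without a test. Several transcripts were listed for 61.8% of those that moved up, 42.4% of those that moved down and 35.7% of all genes with a mean of at least 10. Exonic overlap with any annotated gene on the same strand, with or without a value in the table, was found for 19.1%, 6.62% and 7.09%. In the authors' deposited table the main transcript had a p under 0.05 for 20.6% of genes that moved up and 51.0% of those that moved down. Noncoding genes made up 11.8% and 6.62%, against 1.92% of all. Of the 8 that moved up, 7 were mitochondrial tRNAs and 1 was a pseudogene. None of the genes classed as ncRNA, snRNA or snoRNA moved up, and 3, 2 and 3 of these moved down. Exons of another gene lay on the opposite strand for 39.7% of the genes that moved up and 46.4% of those that moved down, and for 39.1% of all. Strandedness is not stated, so it is unknown whether reads of such partners were kept apart.

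Some movements cancelled within a pair of genes that share a message. Some fly mRNAs carry more than 1 coding sequence, and the table lists such an mRNA under each gene: 32 sets of exons were listed under more than 1 gene. CG44000 and its partner CG44001 had 36.7 and 65.8 at day 2 and 3.92 and 105 at day 12, so that their locus summed to 102 and 109. CG31917 and Tfb5, a subunit of the repair factor TFIIH, had 33.0 and 67.3 at day 2 and 0.870 and 106 at day 12, with a locus sum of 100 and 107. Rpp20, a protein of RNase P, and CG33932 summed to 48.4 and 53.2, although CG33932 alone went from 5.19 to 20.5. By contrast dlt and alpha-Spec, which share a locus, were both lower, and their sum was 34.2 and 17.5. Counting only overlap between genes that both have values in the table, 219 genes lay in 108 such loci, and 19 genes with a shift of at least 10 points were among them.

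Genes with several transcripts could keep their sum while the transcript that led it differed. Of 2118 such genes, the most abundant transcript was another at day 12 in 334 (15.8%), and in 250 of the 1896 with a mean of at least 10 (13.2%). A difference was called clear when each leader held at least 60% of the gene sum on its own day, which was the case in 39 genes (2.06%). In 22 of the 39 the gene sums lay within 1.5-fold of each other, while 10 were higher and 7 lower by at least that much. Single transcripts were less even than gene sums. Among transcripts of the 1896 genes, 1477 of 5798 (25.5%) differed at least 2-fold, and 74.9% of these belonged to genes whose sum lay within 1.25-fold. The minimum of 10 applied to the gene sum, so the 5798 include minor transcripts near 0, such as 1 of dhd at 0.210 and 1.34. Among genes with 1 listed transcript, all with a mean of at least 10, 30 of 3419 (0.877%) differed at least 2-fold. The 2 shares are therefore not like for like.

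Tapdelta, a subunit of the translocon-associated complex of the endoplasmic reticulum, is an example. Its gene sum was 135 at day 2 and 136 at day 12. The transcript that held 99.99% at day 2 (134.7) held 38.7% at day 12 (52.8), and a second one went from 0.00771 to 83.6, or 61.3%. The 2 transcripts share their introns and coding sequence and differ at the 5′ end by 172 nt in length, so only reads in that stretch can separate them. In the authors' deposited table they had a p of 0.115 and 0.109 (adjusted 0.440 and 0.430). In BicD, the dynein adaptor of oocyte transport, the sum was 58.4 and 60.3 while the leader's share went from 67.4% to 34.6%; its leaders have the same exons, so reads cannot assign this share. For vn, an EGF receptor ligand, the sum was 11.6 on both days and the leader's share went from 78.4% to 27.2%; both of its leaders were assembled by the authors. Smurf, a ubiquitin ligase, had 25.8 and 24.7, with a leader at 70.8% and then 36.6%. CG5938 had 14.0 and 13.5, with 60.9% and then 23.9%. CG14207 (66.8 and 75.2) and NaPi-III (60.4 and 81.4) also had sums within 1.5-fold, with leaders at 65.4% and then 29.0% and at 66.8% and then 12.7%.

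In other genes the leader differed together with the sum. The main transcript of RpS2 held 99.5% of its sum at day 2 (932) and 35.8% at day 12 (11.7), when another stood at 20.2. For eIF3l, a subunit of an initiation factor, an annotated transcript went from 61.7 to 2.82 and an assembled one from 3.15 to 29.6. In the authors' deposited table these had adjusted p values of 0.0724 and 0.0454. Rpb7 went from an assembled leader (18.3 and 11.9) to an annotated one (3.96 and 61.9), and Ggamma1, a G protein subunit, did likewise (25.3 and 12.3 against 8.85 and 48.3). CG3776 and hpRNA:CR33940 had sums of 84.4 and 132 and of 89.4 and 56.7. The leader of day 2 went from 53.5 to 0 in CG3776 and from 59.2 to 2.35 in hpRNA:CR33940.

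**Figure D5:**
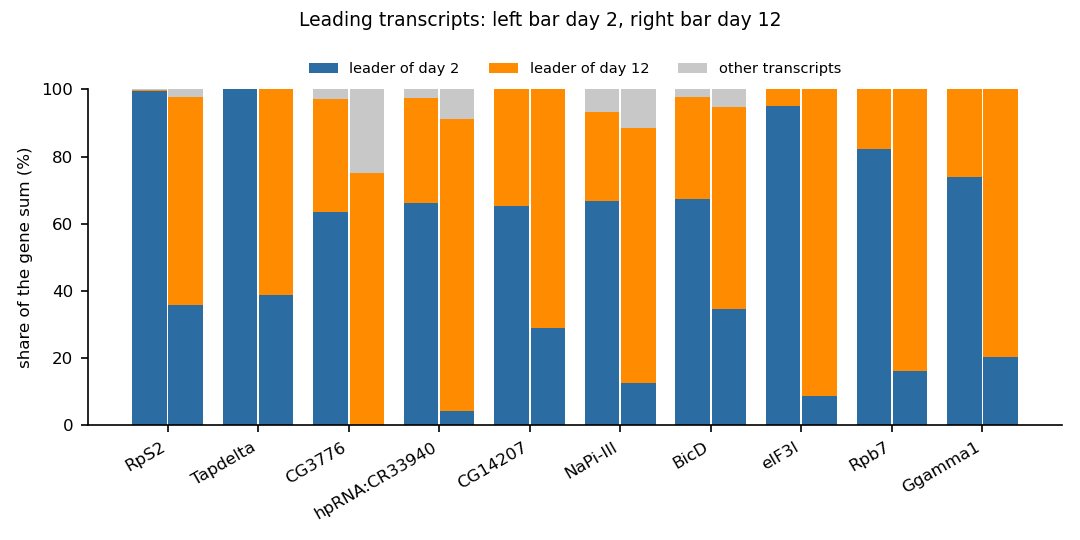
Share of the gene sum (%) held at day 2 (left bar of each pair) and day 12 (right bar) by the leading transcript of day 2, the leading transcript of day 12 and all other transcripts, for the 10 most abundant genes with a clear difference of leader. In Tapdelta the day 2 leader goes from 99.99% to 38.7%, and in eIF3l from 95.1% to 8.70%.

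Where both leaders were annotated, they mostly shared their coding sequence. This was the case in 13 of the 18 such genes among the 39. The 13 had the same introns too and differed at 1 end only: 7 at the 5′ end, by 31 to 1177 nt of length, and 6 at the 3′ end, by 140 to 480 nt. The leader of day 12 was the longer one in 5 of the 7 and in 3 of the 6. In 3 genes, BicD, CG31688 and retm, both leaders had the same exons and differed only in the annotated coding sequence, so reads cannot separate them. In all, 38 such sets of transcripts with the same exons were listed, and the higher one differed between the days in 10.

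The other 21 genes had an assembled leader on at least 1 day. In 9 the leader went from an assembled to an annotated transcript, and all 9 gene sums were higher at day 12, with a median log2 ratio of 0.81. In 8 it went from an annotated to an assembled one, and all 8 sums were lower, with a median of -0.51. In the 4 with 2 assembled leaders, 2 sums were higher and 2 lower. In the authors' deposited table both leaders had a p under 0.05 in 6 of the 39 genes: eIF3l, CG10413, Ppt1, CG31688, HBS1 and CG9319. Of all listed transcripts, taken singly, 16% had a p under 0.05 there.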

How the data were processed

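Per the labels, RNA of stage 14 follicles was extracted with Trizol and sequenced from standard Illumina libraries. Tools named in the submitters' processing notes are DESeq2, HISAT2, STAR and StringTie, with build dm6; the sources used here give no versions, roles, library selection or strandedness. The authors deposited 1 signal value per transcript and day, a mean of 3 libraries per the file headers, and p-values from a test that is not named. All p-values printed are from the authors' deposited table.

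From these, values were summed per gene, and ratios were taken with no pseudocount. Ranks were set over all 5954 genes, and thresholds were a mean of 10, 1.5-fold, 10 percentile points and a leader share of 60%. Scripts were tested on simulated data. Gene classes, lengths, exons and coordinates came from Ensembl release 115 (BDGP6 assembly, dm6 coordinates), where 5902 genes were found. Function groups and cell type markers were lists of gene symbols. Genes were named by a rule: the top 10 of each day, genes entering or leaving the top 100, the 10 largest losses and gains of rank, the 10 most abundant clear changes of leader and the 5 with the steadiest sum, and, per group, the 2 most abundant members and up to 4 called ones, besides the markers. Further members and partners named were chosen after their values were seen. The genes and lists were chosen with earlier results of these data known.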

Additional observations from a re-analysis of the deposited data

How the results depend on the processing

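No paired analysis was possible because each day is given as 1 mean, with no values of single libraries; for the same reason no library was left out, and neither alternative was run. Of 56 recomputed counts, 35 were within 1.5 times of the value reported and 21 were not. With no minimum, 105 gene sums were higher, 230 lower and 69 leaders clearly different; with a minimum of 50 these were 15, 29 and 7, and 17 genes moved up and 49 down. A fold of 2 left 15 higher and 34 lower, and 9 higher and 18 lower in the function groups. Taking only a gene's most abundant transcript gave 126 higher, 150 lower and 149 that moved up. A shift of 20 points left 18 up and 31 down. Leaders were clearly different in 98 genes at more than 50% of the sum, 5 at 75%, 250 with no minimum share and 25 among annotated transcripts. Other scalings, pseudocounts of 0.1 and 1 and, chosen after seeing the data, merging overlapping genes and summing transcripts with the same exons moved no count beyond 1.5 times. Of 53 called genes among those named by rule, only hpRNA:CR33940 turned its direction in the alternatives run: its log2 ratio of -0.66 became 0.82 for its most abundant transcript and 1.09 for annotated transcripts. The depth is unknown, so no counting error could be set beside any value.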

Other observations

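The table also holds 10 loci assembled by the authors that carry no gene identifier. By the names in the file, 2 of these loci are called POLY and 1 POL4. The more abundant POLY locus summed to 41.7 at day 2 and 14.4 at day 12, the other to 4.30 and 0.923, and POL4 to 47.5 and 34.1. TMM65 had 35.95 and 38.9.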
